A study of Mus musculus with 54 samples.

Results

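The expression of 6 genes of prostaglandin synthesis, breakdown and reception was followed through sorted cells of the fetal mouse intestine: Ptgs1, Ptgs2, Ptges, Hpgd, Ptger3 and Ptger4. The genes were found by symbol among the 17393 genes listed in any table of the study, and all 6 were present. On assembly GRCm38.p6 they lie at chr2:36216742-36258593 (Ptgs1), chr1:150100031-150108234 (Ptgs2), chr2:30889471-30931020 (Ptges), chr8:56294552-56321046 (Hpgd), chr3:157566821-157644758 (Ptger3) and chr15:5233399-5244187 (Ptger4). All were listed and tested in the table of 27 libraries of the epithelial and PDGFRA sorts and in that of 18 libraries that holds CD29-HIGH cells. The table of the inhibitor experiment listed 4 of them and left out Ptgs2 and Ptges, and that of E13.5 epithelium listed 3 (Hpgd, Ptger3 and Ptger4). A gene was tested where it reached an RPKM of 1 in at least 3 libraries of a table, where RPKM is a read count scaled to gene length and library size. By this filter 3 members were tested in the inhibitor experiment, since Ptgs1 never exceeded 0.316 RPKM there, and only Hpgd was tested at E13.5.

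Prostaglandins are short-range lipid signals made from arachidonic acid, which phospholipase A2 releases from membranes. The cyclooxygenases, PTGS1 (COX-1) and PTGS2 (COX-2), turn arachidonic acid into prostaglandin H2, and prostaglandin E synthase (PTGES) turns that into prostaglandin E2. PTGS1 is commonly described as the steadily expressed cyclooxygenase and PTGS2 as the inducible one, whose gene belongs to the immediate early response. HPGD, 15-hydroxyprostaglandin dehydrogenase, starts the breakdown of prostaglandin E2. The receptors EP3 (Ptger3) and EP4 (Ptger4) are coupled to G proteins that lower and raise cyclic AMP. In the adult intestine prostaglandin E2 is known for actions on epithelial repair, secretion and smooth muscle tone.

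The study sorted cells from the small intestine of mouse embryos after exclusion of CD31+ and CD45+ cells, to ask how mesenchymal populations differ from each other and from the epithelium along the gut. At E16.5, PDGFRA-HIGH, CD29-HIGH, EpCAM+ (epithelial) and PDGFRA-MED cells of untreated C57Bl/6J embryos were each taken from the distal, mid and proximal sections, with 3 libraries per group (54 libraries in the whole study). The CD29-HIGH gate took PDGFRA-MED cells with high CD29, and the PDGFRA-HIGH and PDGFRA-MED gates took cells with medium CD29, all of them EpCAM-. In an inhibitor experiment, dams carrying Top.CFP embryos received LGK974, which blocks porcupine and with it the secretion of Wnt ligands, from E12.5 to E16.5. It gave 3 LGK974 libraries of epithelium and 1 vehicle library per region, both from Top.CFP embryos, and the untreated C57Bl/6J epithelium served as further control. At E13.5, untreated C57Bl/6J epithelium of the distal and proximal region was sequenced in 3 libraries each. Sorts by 1 or 2 surface proteins can hold several cell types, and LGK974 reached dam and embryo as a whole. Since dams and litters are not named in the labels, the error behind each p-value is the spread among libraries, which may be in part technical.

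The libraries held 15072991 to 26658039 reads. For a 1 kb gene, 14.8 to 26.7 reads made an RPKM of 1. The epithelial marker list summed to 1456–1781 RPKM in EpCAM libraries, against at most 31.6 RPKM in PDGFRA-HIGH and PDGFRA-MED libraries, and the smooth muscle list to 13154–23366 RPKM in CD29-HIGH libraries, against 161–287 RPKM in PDGFRA-MED libraries of the same table. Pdgfra itself was at 587–1187 RPKM in PDGFRA-HIGH, at most 1.13 RPKM in EpCAM and 65.3–107 RPKM in PDGFRA-MED libraries of one table. The PDGFRA mesenchyme list (Pdgfra, Dcn, Col1a1 and Lum) was lower in PDGFRA-HIGH (1632–1886 RPKM) than in PDGFRA-MED libraries (2593–4214 RPKM), and CD29-HIGH cells, gated within PDGFRA-MED cells, had only 0.682–8.98 RPKM of Pdgfra. PDGFRA-MED libraries varied in enteric neuron markers, whose sum ranged between 4.29 and 94.4 RPKM. In bulk libraries, fewer cells of a type and less RNA per cell cannot be told apart.

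Of the 6 members, Ptgs2 had the largest difference between PDGFRA-HIGH and PDGFRA-MED cells. In PDGFRA-HIGH cells it stood at 23.2, 20.3 and 21.3 RPKM in distal libraries, 31.1, 32.8 and 36.5 RPKM in mid libraries and 34.7, 37.7 and 38.7 RPKM in proximal libraries. In PDGFRA-MED cells it stood at 2.54, 1.81 and 1.24 RPKM in distal, 1.09, 0.97 and 0.803 RPKM in mid and 1.27, 1.07 and 0.822 RPKM in proximal libraries. Every PDGFRA-HIGH library thus exceeded every PDGFRA-MED library, with 20.3 RPKM as the lowest PDGFRA-HIGH value and 2.54 RPKM as the highest PDGFRA-MED value. Over the 3 regions the log2 difference of PDGFRA-HIGH and PDGFRA-MED cells was 4.14 ± 0.076 (SE; adjusted p = 5.21e-20, limma on log2(RPKM + 0.5) against a minimum log2 change of 0.5, adjusted over 14732 genes). The immediate early genes, a list of 11 of which 11 were measured, moved with it: their sum was 3776–5948 RPKM in PDGFRA-HIGH libraries and 1034–1779 RPKM in PDGFRA-MED libraries. Their part in the Ptgs2 level was not tested.

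CD29-HIGH cells, from their own table, held intermediate Ptgs2 levels. The values were 4.60, 2.80 and 4.28 RPKM in distal, 6.67, 5.57 and 7.94 RPKM in mid and 11.3, 10.1 and 9.85 RPKM in proximal libraries, against 0.765–2.50 RPKM in the 9 PDGFRA-MED libraries of that table. The groups did not overlap, and the log2 difference over regions was 2.05 ± 0.098 (SE; limma, adjusted p = 1.34e-09). In epithelium Ptgs2 was near its limit of detection, with 0.0118 RPKM in the lowest, 0.0597 in the median and 0.101 in the highest of 9 EpCAM libraries, which stood for 1 to 9 reads.

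Ptgs1 reached the highest RPKM of any member in any library, in CD29-HIGH cells. Its values there were 15.4, 14.7 and 17.9 RPKM in distal, 25.6, 26.8 and 30.6 RPKM in mid and 43.6, 46.4 and 46.2 RPKM in proximal libraries, against 3.50–10.3 RPKM in PDGFRA-MED libraries of the same table. The 9 CD29-HIGH libraries all lay above the 9 PDGFRA-MED libraries (log2 difference 2.13 ± 0.057 (SE), limma, adjusted p = 9.44e-13). PDGFRA-HIGH cells had 11.3, 11.3 and 14.7 RPKM in distal, 26.4, 24.7 and 33.0 RPKM in mid and 30.2, 30.2 and 33.7 RPKM in proximal libraries, and PDGFRA-MED cells of the same table had 3.69, 3.62 and 4.32 RPKM in distal, 5.78, 5.86 and 7.55 RPKM in mid and 8.07, 10.7 and 8.22 RPKM in proximal libraries. These sorts did not overlap either (log2 difference 1.79 ± 0.065 (SE), limma, adjusted p = 1.42e-13). In EpCAM libraries Ptgs1 lay at 0.0432–0.327 RPKM with a median of 0.12 RPKM. On the RPKM scale both cyclooxygenase genes were higher in every PDGFRA-HIGH and PDGFRA-MED library than in any EpCAM library of that table.

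The balance of the cyclooxygenases differed between sorts, as the ratio of Ptgs2 to Ptgs1 RPKM within a library shows. In PDGFRA-HIGH cells it was 1.76 ± 0.30 in distal, 1.20 ± 0.11 in mid and 1.18 ± 0.059 in proximal libraries (SD, n = 3 each). In CD29-HIGH cells it was 0.243 ± 0.054, 0.242 ± 0.030 and 0.230 ± 0.025 in the same regions. In PDGFRA-MED cells it was 0.492 ± 0.20 in distal, 0.153 ± 0.042 in mid and 0.119 ± 0.033 in proximal libraries. PDGFRA-HIGH was the one mesenchymal sort in which Ptgs2 RPKM exceeded Ptgs1 RPKM, and it did so in all 9 libraries.

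**Figure D1:**
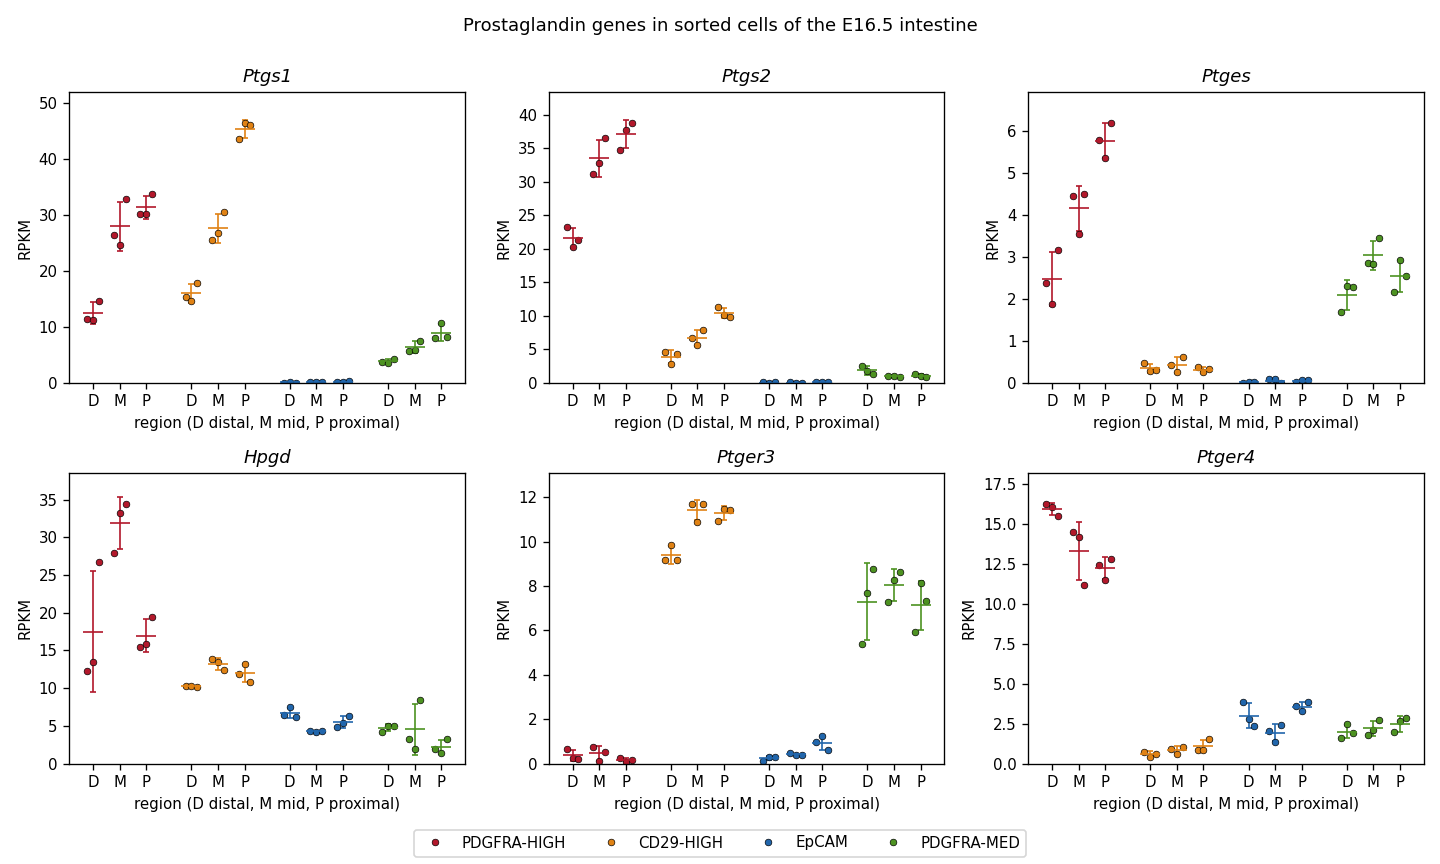
RPKM of the 6 members (one panel each) by sort and region at E16.5, on linear axes that start at 0, with a point for each library and bars for mean ± SD of 3 libraries; CD29-HIGH values come from their own, separately normalized table. Ptgs2 lies between 20.3 and 38.7 RPKM in PDGFRA-HIGH libraries and at or below 2.54 RPKM in PDGFRA-MED libraries, while Ptger3 lies at or below 0.764 RPKM in PDGFRA-HIGH libraries and between 5.40 and 8.77 RPKM in PDGFRA-MED libraries.

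The sequences before the start sites of both cyclooxygenase genes are shown because the genes differed in how strongly they separated PDGFRA-HIGH from PDGFRA-MED cells. The log2 difference was 4.14 for Ptgs2 and 1.79 for Ptgs1. Between CD29-HIGH and PDGFRA-MED cells the values were close to each other (2.05 and 2.13). Each run holds 250 bases read 5′ to 3′ on the gene's strand, from RefSeq on assembly GRCm38.p6, with capitals for matches to the motifs searched.
Ptgs2, chr1:150099781-150100030, plus strand: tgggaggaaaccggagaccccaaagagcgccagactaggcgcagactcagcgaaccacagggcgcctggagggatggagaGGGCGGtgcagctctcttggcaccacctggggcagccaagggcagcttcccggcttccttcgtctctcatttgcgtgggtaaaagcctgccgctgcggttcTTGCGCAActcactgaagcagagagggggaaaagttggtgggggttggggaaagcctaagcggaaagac
Ptgs1, chr2:36230176-36230425, plus strand: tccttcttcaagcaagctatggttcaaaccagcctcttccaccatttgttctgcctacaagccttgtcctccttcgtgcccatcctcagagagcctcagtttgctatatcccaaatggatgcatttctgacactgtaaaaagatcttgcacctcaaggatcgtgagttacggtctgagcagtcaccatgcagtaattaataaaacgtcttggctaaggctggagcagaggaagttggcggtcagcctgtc
The Ptgs2 run ends just before the annotated gene start at position 150100031 of chromosome 1, and the Ptgs1 run lies inside the annotated span of its gene, 36216742 to 36258593 on chromosome 2. Both strands of the windows from 250 bases before to 50 bases after the start were searched for 7 motifs. These were the cAMP response element core ACGTCA, the E-box CACGTG, the C/EBP site TTGCGCAA, the AP-1 site TGACTCA, the TCF/LEF site CTTTGAT, the GC box GGGCGG and the TATA box TATAAA. The Ptgs2 window held the C/EBP site 69 bases before the start, as do 0.183% of 32851 promoter windows, and a GC box 170 bases before it. The cAMP response element core and the E-box, which overlap each other in Ptgs2, began 13 and 17 bases after its start, outside the printed run, and were present in 7.51% and 7.15% of all windows. The Ptgs1 window held none of the 7 motifs. Among the other members, a GC box was found in Ptges, Hpgd, Ptger3 and Ptger4 (35.7% of all windows). The letters TATAAA were found in Hpgd (13.6%), where they began 5 bases after the start and not before it. The AP-1 site (5.20%) and the TCF/LEF site (3.73%) were in no member's window. These matches describe letters in a window and no binding was measured.

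Ptges, which encodes the inducible prostaglandin E2 synthase, was low and did not follow the cyclooxygenases in every sort. In PDGFRA-HIGH cells it had 2.37, 1.88 and 3.16 RPKM in distal, 4.44, 3.54 and 4.50 RPKM in mid and 5.78, 5.36 and 6.19 RPKM in proximal libraries, against 1.69–3.44 RPKM in PDGFRA-MED libraries. The distal libraries of both sorts overlapped, and the mean over regions missed the threshold (log2 difference 0.54 ± 0.077 (SE), limma, adjusted p = 0.862). Mid and proximal libraries of the sorts were separate, and the difference passed in the proximal region (1.05 ± 0.134, adjusted p = 0.00164, beside 24.0% of genes). CD29-HIGH cells, with abundant Ptgs1, had only 0.248–0.618 RPKM of Ptges, below all PDGFRA-MED libraries of their table (at least 1.66 RPKM; log2 difference -1.77 ± 0.091, adjusted p = 5.58e-09). Ptges passed the filter in the CD29-HIGH table through the 9 PDGFRA-MED libraries. EpCAM libraries had at most 0.0851 RPKM. A mid and a distal EpCAM library had 0 reads, which allows up to 0.0438 and 0.0454 RPKM by a floor of 3 reads, counting error only.

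Hpgd, the breakdown enzyme, was the only member above 1 RPKM in every library of every table. PDGFRA-HIGH cells had 12.2, 13.5 and 26.7 RPKM in distal, 27.9, 33.2 and 34.4 RPKM in mid and 15.5, 15.8 and 19.4 RPKM in proximal libraries. PDGFRA-MED cells had 4.20, 5.04 and 5.05 RPKM in distal, 3.21, 1.98 and 8.43 RPKM in mid and 1.97, 1.38 and 3.31 RPKM in proximal libraries. The sorts did not overlap, although 1 mid PDGFRA-MED library and 1 distal PDGFRA-HIGH library stood well above the others of their groups (log2 difference 2.44 ± 0.158 (SE), limma, adjusted p = 1.61e-09). CD29-HIGH cells held an even level of 10.2–13.9 RPKM over 9 libraries, against 1.32–8.04 RPKM in PDGFRA-MED libraries of that table (1.70 ± 0.189, adjusted p = 0.00013). Epithelium had 4.18–7.53 RPKM with a median of 5.35 RPKM. Over the 3 regions that overlapped PDGFRA-MED cells (0.60 ± 0.158, adjusted p = 0.43). In the proximal region 4.88–6.35 RPKM in EpCAM libraries stood against 1.38–3.31 RPKM in PDGFRA-MED libraries, and the difference passed (1.20 ± 0.273, adjusted p = 0.0195, beside 50.7% of genes). Over the 3 regions Hpgd was lower in epithelium than in PDGFRA-HIGH cells (-1.84 ± 0.158, adjusted p = 1.13e-07).

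The balance of Hpgd and Ptges transcripts also differed between sorts. The ratio of Hpgd to Ptges RPKM was 6.92 ± 1.6 in distal, 7.77 ± 1.6 in mid and 2.93 ± 0.23 in proximal PDGFRA-HIGH libraries (SD, n = 3 each). It was 30.9 ± 8.2, 35.6 ± 17 and 39.1 ± 11 in the same regions of CD29-HIGH cells, and 2.29 ± 0.16, 1.42 ± 0.91 and 0.892 ± 0.41 in PDGFRA-MED cells. CD29-HIGH libraries all lay above the other mesenchymal libraries, which reached 9.39 at most. In CD29-HIGH libraries Ptges rests on 16 to 48 reads, and other terminal synthases do not enter this ratio. The tables were normalized apart, but a ratio within a library does not depend on that scaling.

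The receptor genes had opposite patterns in the mesenchyme. Ptger4 was higher in PDGFRA-HIGH cells, with 16.2, 16.1 and 15.5 RPKM in distal, 14.5, 14.1 and 11.2 RPKM in mid and 12.4, 11.5 and 12.8 RPKM in proximal libraries, against 1.63–2.88 RPKM in the 9 PDGFRA-MED libraries. No libraries of these sorts overlapped (log2 difference 2.39 ± 0.102 (SE), limma, adjusted p = 5.5e-13). In CD29-HIGH cells Ptger4 was lower, at 0.745, 0.422 and 0.632 RPKM in distal, 0.947, 0.626 and 1.06 RPKM in mid and 0.881, 0.882 and 1.52 RPKM in proximal libraries, against 1.60–2.79 RPKM in PDGFRA-MED libraries (-0.98 ± 0.101, adjusted p = 0.000626). Ptger4 passed the filter in the CD29-HIGH table mainly through the 9 PDGFRA-MED libraries, where it is high. Of the CD29-HIGH libraries, only those at 1.06 and 1.52 RPKM reached 1 RPKM. Epithelium had 1.35–3.87 RPKM with a median of 2.77 RPKM, overlapping PDGFRA-MED cells.

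Ptger3 was instead high in the CD29-HIGH and PDGFRA-MED sorts. PDGFRA-HIGH cells had 0.656, 0.253 and 0.223 RPKM in distal, 0.764, 0.102 and 0.537 RPKM in mid and 0.247, 0.0779 and 0.158 RPKM in proximal libraries, or 3 to 33 reads. PDGFRA-MED cells had 5.40, 7.71 and 8.77 RPKM in distal, 7.26, 8.29 and 8.63 RPKM in mid and 5.92, 8.12 and 7.35 RPKM in proximal libraries. The gap separated all libraries of these sorts (log2 difference -3.30 ± 0.139 (SE), limma, adjusted p = 1.24e-13), and Ptger3 passed the filter in that table through the 9 PDGFRA-MED libraries and 1 EpCAM library. In the CD29-HIGH table its level was 9.17–11.7 RPKM in CD29-HIGH libraries and 5.30–8.38 RPKM in PDGFRA-MED libraries, with no overlap but a difference close to the minimum change tested (0.55 ± 0.060, adjusted p = 0.703). Epithelium had 0.137–1.26 RPKM with a median of 0.412 RPKM. Proximal epithelium, with 0.626–1.26 RPKM, was above proximal PDGFRA-HIGH cells, with 0.0779–0.247 RPKM (1.11 ± 0.240, adjusted p = 0.0171, beside 58.6% of genes).

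Enteric neuron markers, 5 of 5 measured, moved with Ptger3 between these sorts, at 0.388–1.50 RPKM in PDGFRA-HIGH libraries and 4.29–94.4 RPKM in PDGFRA-MED libraries. Their part in the Ptger3 difference was not tested. CD29-HIGH libraries held their 9.17–11.7 RPKM of Ptger3 with a neuron sum of 0.995–3.33 RPKM. Without the 5 PDGFRA-MED libraries above 25 RPKM of neuron markers, an alternative chosen after seeing the data, 5 members were called in each of the comparisons of PDGFRA-HIGH, CD29-HIGH and EpCAM with PDGFRA-MED cells. In the last of these Hpgd was then higher in epithelium (1.01, limma, adjusted p = 0.00256). The share of all genes called in that fit was not counted.

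The receptor balance, as the ratio of Ptger4 to Ptger3 RPKM within a library, was between 19.0 and 147 in PDGFRA-HIGH libraries, where Ptger3 rests on few reads. It was 0.0428–0.133 in CD29-HIGH libraries, 2.59–28.3 in EpCAM libraries and 0.218–0.392 in PDGFRA-MED libraries. PDGFRA-HIGH and EpCAM libraries overlapped each other, and no library of either overlapped the CD29-HIGH or PDGFRA-MED libraries, which were also apart from each other.

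Over the 3 regions, 5 of the 6 members differed between PDGFRA-HIGH and PDGFRA-MED cells, 4 higher (Ptgs1, Ptgs2, Hpgd, Ptger4) and 1 lower (Ptger3), beside 26.8% of the 14732 genes tested (13.1% higher and 13.7% lower). The median log2 difference was 2.09 over the members and -0.02 over all genes tested. These medians are a description, since the members were chosen with earlier results of these data known. Between CD29-HIGH and PDGFRA-MED cells, 5 of 6 members differed, 3 higher (Ptgs1, Ptgs2, Hpgd) and 2 lower (Ptges, Ptger4), beside 26.7% of 13334 genes (14.4% higher and 12.3% lower). Both comparisons use the same PDGFRA-MED libraries, and CD29-HIGH and PDGFRA-HIGH cells were not tested against each other since they were normalized in separate tables.

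Epithelium against PDGFRA-MED cells gave 4 members over the 3 regions, all lower (Ptgs1, Ptgs2, Ptges and Ptger3), beside 56.5% of genes (27.6% lower). The log2 differences were -3.36, -1.63, -2.49 and -2.99. Against PDGFRA-HIGH cells, 5 members were lower in epithelium as the mean over regions (all but Ptger3), beside 63.0% of genes (30.3% lower), with the largest differences for Ptgs2 (-5.77 ± 0.076, limma, adjusted p = 6.91e-24) and Ptgs1 (-5.15 ± 0.065, adjusted p = 3.93e-24). Ptgs1, Ptgs2 and Ptges passed the filter in this table only through PDGFRA-HIGH and PDGFRA-MED libraries, the sorts where they are high. Their highest EpCAM values were 0.327, 0.101 and 0.0851 RPKM. With a pseudocount of 0.5 RPKM, the log2 differences understate the change of genes that are near 0 in epithelium.

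**Figure D2:**
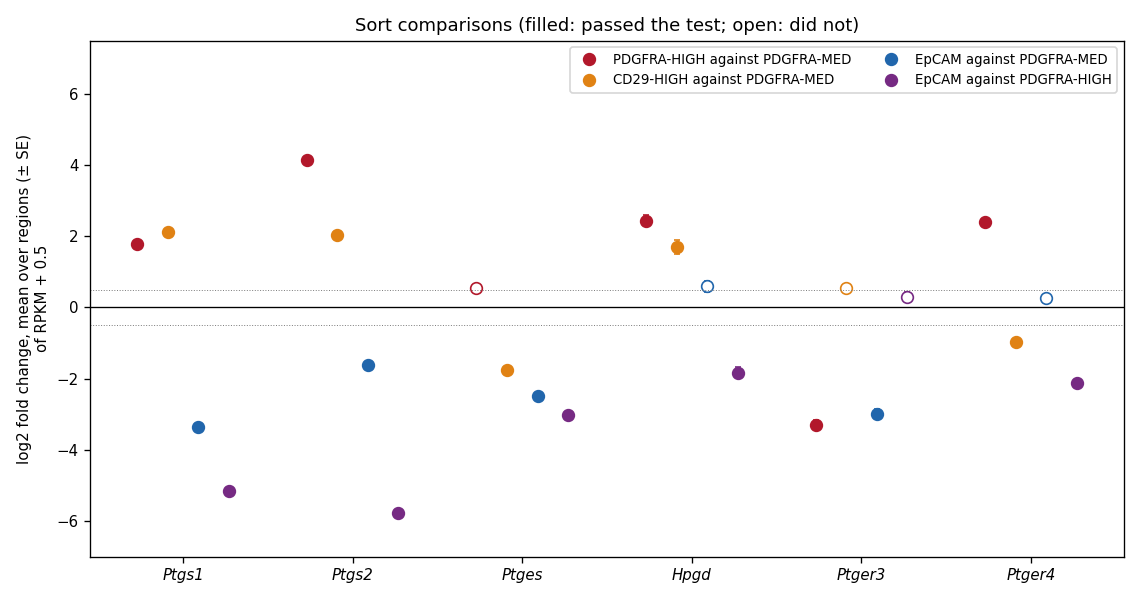
Log2 difference between sorts for each member, as the mean over regions (limma on log2(RPKM + 0.5)), with bars for the standard error, most of them smaller than the points, dotted lines at the minimum change tested of 0.5 in either direction, and filled points for differences that passed at an adjusted p under 0.05. Ptgs2 is at 4.14 and Ptger3 at -3.30 for PDGFRA-HIGH against PDGFRA-MED cells, and Ptges is at -1.77 for CD29-HIGH against PDGFRA-MED cells.

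Along the gut, Ptgs1 was the member with a regional gradient in all 3 mesenchymal sorts. Its log2 difference of distal and proximal libraries was -1.31 ± 0.113 (SE; limma, adjusted p = 3.67e-05) in PDGFRA-HIGH cells, -1.48 ± 0.098 (adjusted p = 9.98e-06) in CD29-HIGH cells and -1.11 ± 0.113 (adjusted p = 0.00278) in PDGFRA-MED cells. Distal and proximal libraries did not overlap in any of them. In PDGFRA-HIGH cells the mid libraries overlapped the proximal ones, and the distal libraries were lower than the mid ones too (-1.14, adjusted p = 0.00261, beside 0.496% of genes). In EpCAM libraries, where Ptgs1 has 3 to 23 reads, the difference was -0.37 and did not pass (adjusted p = 1).

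Ptges fell in distal PDGFRA-HIGH cells as well (distal minus proximal -1.10 ± 0.134 (SE), limma, adjusted p = 0.00691), so that 2 of 6 members differed there, beside 2.46% of genes. Without distal replicate 2 the value was -0.95 and no longer passed (adjusted p = 0.0886). Ptgs2 in the same cells was 20.3–23.2 RPKM in distal and 34.7–38.7 RPKM in proximal libraries, without overlap, but its log2 difference of -0.77 ± 0.132 did not pass against the minimum change of 0.5 (adjusted p = 0.585). In CD29-HIGH cells 2 of 6 members fell distally, beside 2.26% of genes: Ptgs1, and Ptgs2 with -1.34 ± 0.169 (adjusted p = 0.00664). The Ptgs2 call there ended without distal replicate 2 (-1.17, adjusted p = 0.0549).

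In PDGFRA-MED cells only Ptgs1 passed, beside 0.869% of genes, and with the compared groups fitted alone it did not (adjusted p = 0.0883 by limma). Ptgs2 ran the other way there, with 1.24–2.54 RPKM in distal and 0.822–1.27 RPKM in proximal libraries, which overlapped (0.58 ± 0.132, adjusted p = 1). The immediate early sum in the same 3 distal libraries was 1779, 1678 and 1177 RPKM, in the order of their Ptgs2 values of 2.54, 1.81 and 1.24 RPKM, and 1034–1188 RPKM in proximal ones. Its part in the Ptgs2 level was not tested.

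The sort difference of Ptgs2 depended on the region. The log2 difference of PDGFRA-HIGH and PDGFRA-MED cells was 3.26 in distal, 4.55 in mid and 4.60 in proximal libraries, and the distal value was smaller than the proximal one by a test of the difference itself (-1.34 ± 0.187 (SE), limma, adjusted p = 0.0119), as for 1.27% of genes. That of CD29-HIGH and PDGFRA-MED cells was 0.94 (adjusted p = 0.051, not passed, beside 20.4% of genes), 2.34 and 2.86 in the same regions, again with a smaller distal value (-1.92 ± 0.240, adjusted p = 0.00579), as for 0.780% of genes. Both rest on the same PDGFRA-MED libraries, and without the 5 that are rich in neuron markers they were -1.12 (adjusted p = 0.167) and -1.62 (adjusted p = 0.212). With all libraries kept, no other member had a sort difference that varied along the gut by this test.

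Ptger3, Ptger4 and Hpgd did not pass between distal and proximal libraries of any mesenchymal sort. Ptger4 in PDGFRA-HIGH cells was 15.5–16.2 RPKM in distal and 11.5–12.8 RPKM in proximal libraries, which did not overlap (0.37 ± 0.177, adjusted p = 1). Hpgd in PDGFRA-HIGH cells was highest in the mid section (27.9–34.4 RPKM), and neither section beside it differed from it by the test (mid minus proximal 0.89 ± 0.273, adjusted p = 1). In E16.5 epithelium 0 of 6 members passed between distal and proximal libraries by limma, beside 5.89% of genes, and at an unadjusted p under 0.05 only Ptger3 did. It had 0.137, 0.324 and 0.307 RPKM in distal and 0.956, 1.26 and 0.626 RPKM in proximal libraries, without overlap (-0.92 ± 0.240, adjusted p = 0.536). limma-voom on recovered reads called 0 as well.

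**Figure D3:**
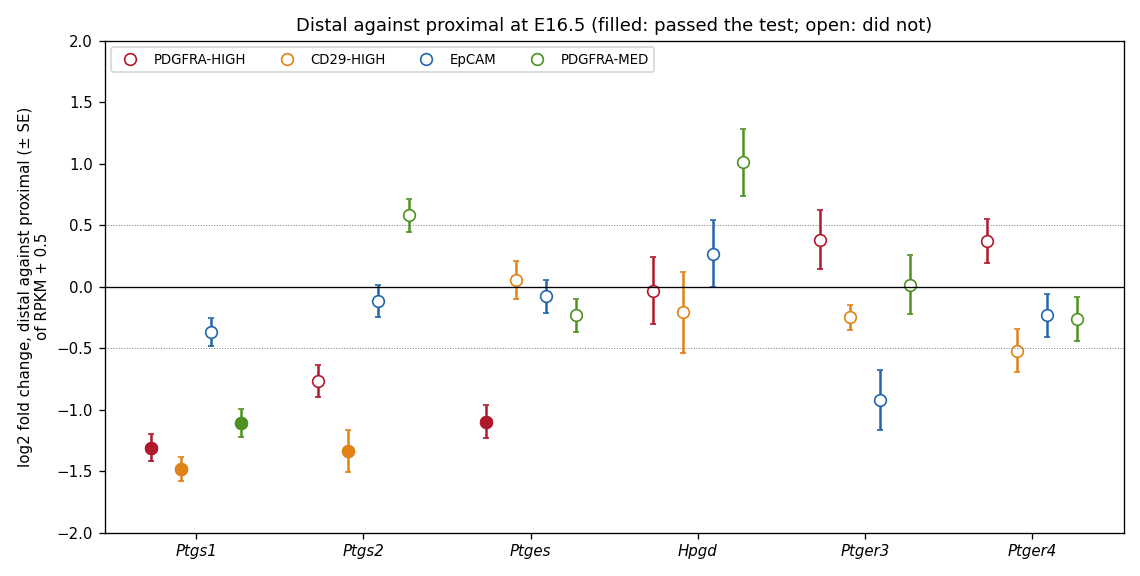
Log2 difference between distal and proximal libraries of each member within each sort at E16.5 (limma on log2(RPKM + 0.5)), with bars for the standard error and filled points for differences that passed; dotted lines mark the minimum change tested of 0.5. Ptgs1 is at -1.31 in PDGFRA-HIGH, -1.48 in CD29-HIGH and -1.11 in PDGFRA-MED cells, and Ptgs2 is below 0 in PDGFRA-HIGH and CD29-HIGH cells and at 0.58, not passed, in PDGFRA-MED cells.

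Epithelium of both ages was normalized in separate tables and is set side by side here without a test. Hpgd had 6.22–7.53 RPKM in distal and 4.88–6.35 RPKM in proximal libraries at E16.5, and 3.37–4.14 RPKM in distal and 1.18–4.49 RPKM in proximal libraries at E13.5. Ptger4 had 2.38–3.87 RPKM distally and 3.26–3.83 RPKM proximally at E16.5, and 0.222–0.308 RPKM distally and 0.177–0.520 RPKM proximally at E13.5. Ptger3 had 0.137–0.324 RPKM distally and 0.626–1.26 RPKM proximally at E16.5, and 0–0.174 RPKM distally and 0.601–0.885 RPKM proximally at E13.5. The distal E13.5 library with 0 reads allows up to 0.10 RPKM by the floor of 3 reads. At both ages distal epithelium had less Ptger3 than proximal epithelium in every library, at levels of 0 to 48 reads. Of the listed members only Hpgd passed the filter at E13.5, and its difference between regions did not pass (distal minus proximal 0.37 ± 0.289 (SE), limma, adjusted p = 1), so 0 of 1 member was called, 0 at an unadjusted p under 0.05 and 0 by limma-voom, beside 2.16% of genes.

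LGK974 was tested in the epithelium on the 3 members above the filter. In the distal section Ptger4 was 1.26, 1.10 and 0.908 RPKM in LGK974 libraries, against 3.71, 2.66 and 2.29 RPKM in untreated libraries and 2.77 RPKM in the vehicle library. LGK974 and control libraries did not overlap, and the log2 difference was -1.07 ± 0.160 (SE; limma, adjusted p = 0.0101), which made 1 of 3 members, beside 14.3% of 12865 genes. Set against the vehicle library alone, which shares the Top.CFP background, the difference was -1.05 and did not pass (adjusted p = 0.0755). It also ended without LGK974 distal replicate 3 (-0.98, adjusted p = 0.066).

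In the mid section Ptger4 was 1.42, 1.71 and 2.01 RPKM in LGK974 libraries, against 1.94, 1.29 and 2.37 RPKM in untreated libraries and 1.53 RPKM with vehicle, which overlapped. In the proximal section it was 4.67, 5.71 and 5.49 RPKM in LGK974 libraries, against 3.49, 3.13 and 3.70 RPKM in untreated libraries and 4.26 RPKM with vehicle. The proximal LGK974 libraries lay above all controls, but the difference did not pass (0.49 ± 0.160 (SE), limma, adjusted p = 1). The effect of LGK974 on Ptger4 was lower distally than proximally by a test of the difference (-1.55 ± 0.227, adjusted p = 0.00383). With the vehicle library alone as control it was -1.32 and did not pass (adjusted p = 0.114).

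Ptger3 passed the filter in the inhibitor table through 4 libraries, of which 3 are the proximal LGK974 libraries, so that the gene would not have been tested without them. Its proximal values were 1.72, 2.73 and 2.67 RPKM (56 to 100 reads) in LGK974 libraries, against 0.925, 1.21 and 0.604 RPKM in untreated libraries and 0.714 RPKM with vehicle. These did not overlap, and the log2 difference of 1.08 ± 0.174 (SE) missed the threshold (limma, adjusted p = 0.0697). Mid values were 0, 0 and 0.149 RPKM in LGK974 libraries, against 0.441, 0.392 and 0.384 RPKM in untreated libraries and 0.495 RPKM with vehicle. The 2 libraries at 0 allow up to 0.0627 and 0.0953 RPKM by a floor of 3 reads.

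Distal Ptger3 was 0, 0 and 0.133 RPKM in LGK974 libraries, with floors of 0.0786 and 0.0701 RPKM, against 0.131, 0.311 and 0.295 RPKM in untreated libraries and 0.146 RPKM with vehicle. The mid groups were separate and the distal groups overlapped. Neither difference passed on this scale (-0.77 ± 0.174, adjusted p = 0.537, and -0.40 ± 0.174, adjusted p = 1). limma-voom on recovered reads called both (-3.90 in mid and -3.03 in distal epithelium), fitted values that depend on the offset given to libraries with 0 reads. The effect of LGK974 was lower in mid and in distal epithelium than in proximal epithelium by tests of the difference (-1.84 ± 0.247, adjusted p = 0.00157, and -1.48 ± 0.247, adjusted p = 0.0123). Ptger3 entered these tests through its high proximal LGK974 libraries, and with no filter on low values the adjusted p were 0.000813 and 0.00781. With the vehicle library alone as control neither passed (-2.09, adjusted p = 0.0523, and -1.48, adjusted p = 0.193). Such differences passed for 2.95% of all genes tested between mid and proximal and for 5.21% between distal and proximal.

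Within LGK974 libraries both receptor genes were highest proximally. Ptger4 was lower in distal than in proximal libraries (-1.87 ± 0.172 (SE), limma, adjusted p = 2.62e-06), as 11.9% of genes differed. For Ptger3, which is in the table through the proximal libraries, the values above are given as a description. Hpgd was 4.89–5.42 RPKM in distal, 3.02–4.34 RPKM in mid and 4.99–6.57 RPKM in proximal LGK974 libraries, against 5.53–7.23, 3.98–4.18 and 3.69–6.13 RPKM in the controls. Distal LGK974 libraries lay below all distal controls, and the other regions overlapped. Its log2 differences of -0.25, -0.19 and 0.24 did not pass.

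In mid epithelium 0 of 3 members passed by limma and 0 at an unadjusted p under 0.05 (beside 7.31% of genes, with 1 called by limma-voom), and in proximal epithelium 0 of 3 passed with 1, Ptger3, at an unadjusted p of 0.00182 (beside 2.18% of genes, with 0 called by limma-voom). Other markers moved with LGK974. LGK974 and control libraries did not overlap in the sums of 11 of 11 marker lists in distal epithelium, and of 5 of 11 in mid and in proximal epithelium. How many of all genes separate in this way was not counted, and 14.3% were called by limma distally. Some distal sums were low, as for endothelium (0.0772–0.199 RPKM, against 0.251–0.506 RPKM in controls) and pericytes (0.574–0.750 RPKM, against 0.963–1.94 RPKM). The smooth muscle sums barely separated. The interstitial cell of Cajal list, 3 of 3 measured with none at 0, summed to 0.710–1.01 RPKM in distal LGK974 libraries and 10.5–14.4 RPKM in controls. Kit (0.255–0.478 RPKM with LGK974 and at least 6.65 RPKM in controls) and Etv1 (0.0876–0.235 and 3.25–3.82 RPKM) made up this gap, and Ano1 overlapped. The blood and macrophage list, 2 of 5 measured, summed to 6.24–6.81 RPKM in LGK974 libraries and 1.72–2.61 RPKM in controls. The gap lay in Csf1r (4.10–5.54 RPKM with LGK974 and 0.198–0.799 RPKM in controls), while Cd68 overlapped and the sort had excluded CD45+ cells. The enteric glia list, 2 of 4 measured, was higher as well (0.785–0.984 RPKM, against 0.314–0.607 RPKM in controls). Distal sums were lower with LGK974 for PDGFRA mesenchyme (4 of 4 measured, 5.28–9.5 RPKM, against 12.3–20.9 RPKM), smooth muscle (5 of 5, 4.19–9.74 RPKM, against 9.93–42.7 RPKM), enteric neurons (4 of 5, 1.49–2.48 RPKM, against 3.10–4.14 RPKM) and epithelium (6 of 6, 1357–1449 RPKM, against 1561–1637 RPKM). The epithelial genes did not move together. Epcam (368–398 RPKM, against 485–553 RPKM), Krt8 and Cdh1 were lower without overlap. Vil1 was higher (199–228 RPKM, against 136–174 RPKM), and Krt18 and Cldn7 overlapped.

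The immediate early sum was higher with LGK974 in distal epithelium (1571–1973 RPKM, against 587–1257 RPKM in controls) and in proximal epithelium (1593–1703 RPKM, against 893–1365 RPKM). In proximal epithelium the mesothelium list, 3 of 5 measured and mostly Krt19, which epithelium also expresses, summed to 914–1001 RPKM in LGK974 libraries and 401–506 RPKM in controls, and the smooth muscle list to 5.52–10.2 RPKM and 10.8–22.7 RPKM. In mid epithelium the Cajal list summed to 0.508–0.925 RPKM in LGK974 libraries and 6.65–9.32 RPKM in controls, and the smooth muscle list to 4.84–13.2 RPKM and 13.8–44.7 RPKM. The blood and macrophage list was higher there (5.92–6.12 RPKM, against 1.23–3.14 RPKM in controls). The epithelial list was lower with LGK974 in mid epithelium (1303–1356 RPKM, against 1414–1542 RPKM). In proximal epithelium the epithelial list was higher (1899–2015 RPKM, against 1708–1810 RPKM). Their part in the receptor results was not tested, and strain and treatment cannot be told apart in the comparison with untreated libraries.

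**Figure D4:**
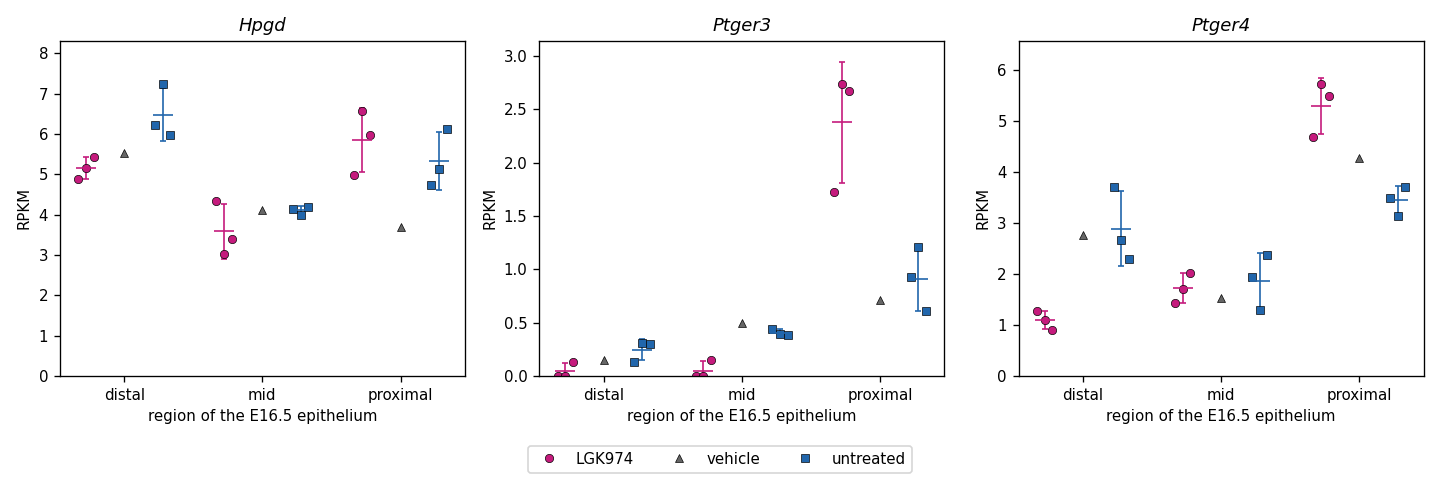
RPKM of Ptger3, Ptger4 and Hpgd in E16.5 epithelium by region for LGK974, vehicle and untreated libraries, on linear axes that start at 0, with a point for each library and bars for mean ± SD where there are 3. Ptger4 lies at 0.908–1.26 RPKM in distal LGK974 libraries and at 2.29–3.71 RPKM in distal controls, and Ptger3 lies at 1.72–2.73 RPKM in proximal LGK974 libraries and at 0.604–1.21 RPKM in proximal controls.

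The rest of the prostanoid pathway was read from a list of 25 further genes for release, terminal synthesis, breakdown, transport and reception, of which 17 were tested with the PDGFRA and EpCAM sorts. Between PDGFRA-HIGH and PDGFRA-MED cells 3 were higher and 4 lower, beside 26.8% of all genes tested, with a median log2 difference of 0.03. Higher were Pla2g4a, the phospholipase that supplies the cyclooxygenases (2.15 ± 0.074 (SE), limma, adjusted p = 2.43e-14), Zadh2, a prostaglandin reductase (1.52, adjusted p = 8.11e-16), and Slco2a1, which carries prostaglandins into cells (56.7–92.2 RPKM as region means in PDGFRA-HIGH cells and 0.364–0.682 RPKM in PDGFRA-MED cells). Pla2g4a averaged 84.9 ± 16 RPKM in distal, 109 ± 7.9 RPKM in mid and 124 ± 18 RPKM in proximal PDGFRA-HIGH libraries (SD, n = 3 each), against 23.3, 23.6 and 22.6 RPKM in PDGFRA-MED cells. The lower genes with the largest differences were Ptgis, the prostacyclin synthase (-2.71, adjusted p = 1.54e-14), and Ptger1, the EP1 receptor (-1.45, adjusted p = 1.5e-08). Ptgis averaged 2.09 RPKM in distal and 1.24 RPKM in proximal PDGFRA-HIGH libraries, against 10.9 RPKM in distal and 14.2 RPKM in proximal PDGFRA-MED libraries. Transcripts of the first steps (Pla2g4a, Ptgs1 and Ptgs2) were higher and that of prostacyclin synthase lower in PDGFRA-HIGH than in PDGFRA-MED cells.

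CD29-HIGH cells against PDGFRA-MED cells gave 4 higher and 1 lower of 15 tested, beside 26.7% of all genes. Higher were Zadh2 (1.49 ± 0.033 (SE), limma, adjusted p = 4.8e-13), the prostaglandin reductase gene Ptgr1 (1.31, adjusted p = 7.87e-10), the exporter gene Abcc4 (1.30, adjusted p = 2.33e-07) and Ptgir, the prostacyclin receptor (1.07, adjusted p = 6.98e-06). Lower was Ptgis (-2.11, adjusted p = 4.02e-09), which averaged 1.80–2.71 RPKM per region in CD29-HIGH cells and 10.6–13.7 RPKM in PDGFRA-MED cells. The receptor and the synthase gene of prostacyclin differed in opposite directions in this comparison.

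Epithelium against PDGFRA-MED cells gave 8 higher and 5 lower of 17, beside 56.5% of all genes. The largest were Ptgis (-4.37), Tbxa2r (-3.67), Pla2g4a (-3.01), Slco2a1 (2.88) and Ptger1 (-2.40), all with adjusted p of 2.69e-14 or less by limma. Ptgis, Tbxa2r and Ptger1 were not listed in the inhibitor experiment, which holds epithelium only. Whether they passed the filter here only through mesenchymal libraries, where they are higher, was not counted. Between distal and proximal epithelium, where 5.89% of all genes differed, Hpgds, a prostaglandin D2 synthase, was higher (1.51, adjusted p = 4.46e-06), and Slco2a1 (-1.08, adjusted p = 0.00593) and Cbr1, a carbonyl reductase that acts on prostaglandins (-1.05, adjusted p = 5.62e-05), were lower. In PDGFRA-HIGH cells Zadh2 was lower distally (-1.11, adjusted p = 1.34e-06, beside 2.46% of all genes), and no listed gene passed in CD29-HIGH or PDGFRA-MED cells.

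**Figure D5:**
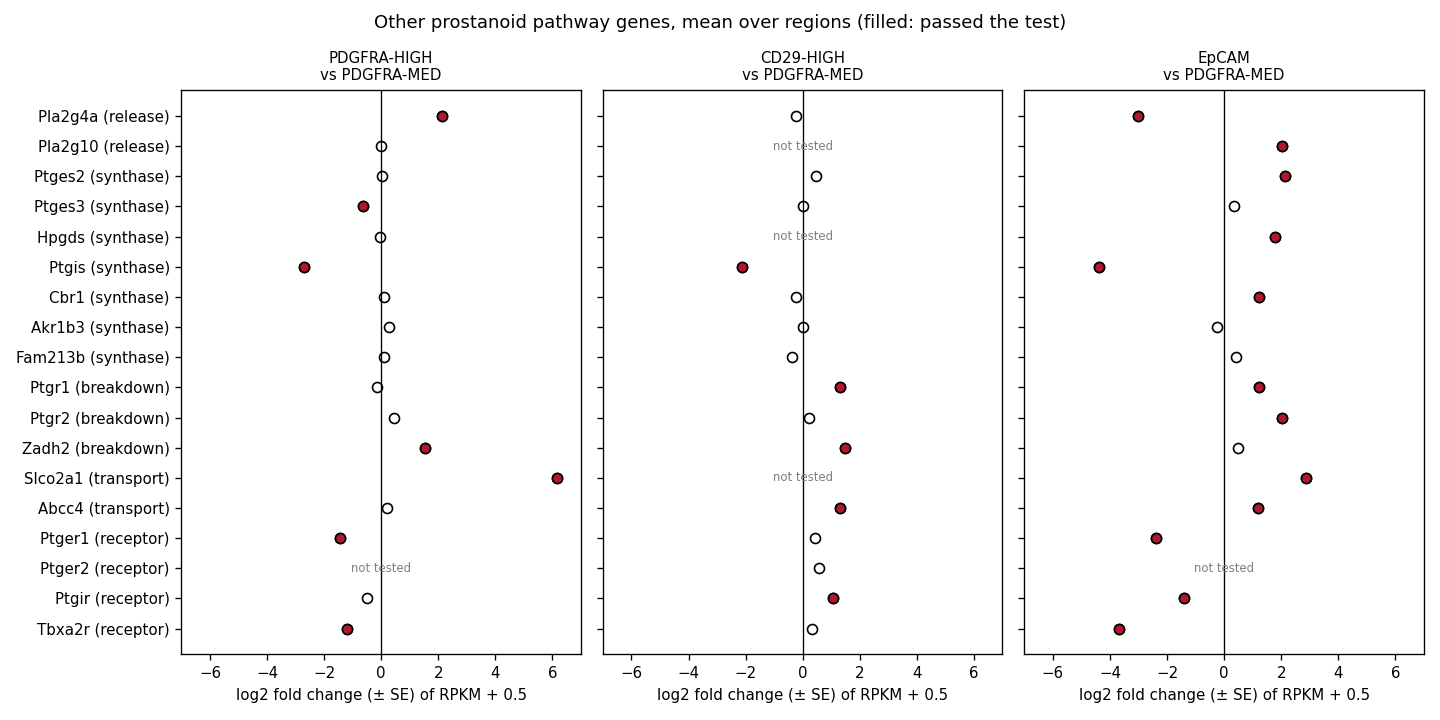
Log2 difference of the other prostanoid genes, grouped by role, for PDGFRA-HIGH, CD29-HIGH and EpCAM cells against PDGFRA-MED cells, as the mean over regions (limma on log2(RPKM + 0.5)), with bars for the standard error, smaller than most points, and filled points for differences that passed. Pla2g4a is at 2.15 and Ptgis at -2.71 for PDGFRA-HIGH cells, and Ptgis is at -2.11 for CD29-HIGH and -4.37 for EpCAM cells.

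With LGK974 in distal epithelium, 3 of 13 were higher and 1 lower, beside 14.3% of all genes. Hpgds averaged 13.2 ± 2.0 RPKM in LGK974 libraries, against 2.57 ± 0.67 RPKM in untreated libraries (SD, n = 3 each) and 1.52 RPKM with vehicle (log2 difference 2.32 ± 0.179 (SE), limma, adjusted p = 2.16e-07). Slco2a1 averaged 11.9 ± 0.73 RPKM, against 4.08 ± 1.2 RPKM untreated and 2.37 RPKM with vehicle (1.62, adjusted p = 5.22e-05). Ptgr1 was higher too (1.30, adjusted p = 0.00179). Pla2g10, a secreted phospholipase A2, was the lower one (adjusted p = 0.0162), with 0 reads in all distal LGK974 libraries, against 13 to 33 reads in untreated libraries and 9 in the vehicle library. Pla2g10 therefore passed the filter through libraries other than the distal LGK974 ones. By the floor used, a count of 0 allows up to 3 reads. In mid epithelium, beside 7.31% of all genes, Hpgds (1.52, adjusted p = 0.00029) and Cbr1 (0.96, adjusted p = 0.0134) were higher and Pla2g4a (-1.23, adjusted p = 0.00384) and Pla2g10 (adjusted p = 0.00571) lower. In proximal epithelium, beside 2.18% of all genes, Cbr1 was higher (0.94, adjusted p = 0.0442) and Pla2g10 lower (adjusted p = 0.0102).

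Over the 9 group means of the PDGFRA and EpCAM sorts (log2(RPKM + 0.5)), Ptgs1 and Ptges followed each other most closely among the members (Pearson r = 0.9773), and Ptger3 and Hpgd were most opposed (r = -0.6843). CD29-HIGH cells are not among these means. In them Ptgs1 was higher (log2 difference 2.13) and Ptges lower (-1.77) than in PDGFRA-MED cells. Across 14732 genes, patterns most like each member belonged to Lnx2 (0.9989) and Plpp3 (0.9963) for Ptgs1, and to Lrfn2 (0.9986), Foxk1 (0.9986) and Nrg2 (0.9982) for Ptgs2. They were H2-T22 (0.9983), A630072M18Rik (0.9965) and Zdhhc18 (0.9949) for Ptges, and Dock11 (0.9858), Ier2 (0.976) and Sertad1 (0.9717) for Hpgd. For Ptger3 they were Cartpt (0.9958), Stmn2 (0.9936) and Sptssb (0.9912), and for Ptger4 Tlr2 (0.9899), Bpgm (0.987) and Itga2 (0.985). Ier2 is one of the immediate early genes, and Stmn2 is a neuronal gene. With 9 means dominated by 3 sorts, r near 1 describes a shared order of sorts, and the means share libraries and normalization.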

How the data were processed

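Stranded RNA-seq libraries of sorted cells were aligned by the authors to mouse genome mm10, counted per RefSeq gene with featureCounts, and scaled with edgeR, and the deposited values are RPKM in 4 tables normalized separately, of which 18 library columns are repeats between tables. Tests stay within a table. A deposited column of mean log expression and 0 per-sample columns were left unused. RPKM were transformed to log2(RPKM + 0.5), for genes that reached an RPKM of 1 in at least 3 libraries of a table. Groups were fitted with limma 3.58.1 (R 4.3.3, trend and robust), against a minimum log2 change of 0.5, with Benjamini-Hochberg adjustment over all genes and a threshold of 0.05. Replicate number, which the study's methods tie to the mother, was a block except in the inhibitor experiment. Deviations of same-numbered libraries correlated at a mean r of 0.137, 0.239 and 0.200 in the PDGFRA, CD29-HIGH and E13.5 tables.

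Whole reads were recovered from the RPKM steps (100% of values whole within 0.01), used for depth (15072991 to 26658039 reads per library), for a floor of 3 reads at a count of 0, and for limma-voom as an alternative. These floors cover counting error only. Among 51 pairs of libraries of one group, 0 were identical and the lowest chi-square per degree of freedom was 8.32. Members and gene lists were chosen with earlier results of these data known. Outside the members, the pathway genes named are those past the threshold in a comparison, up to the 5 with the largest difference, and the 3 genes most like each member, of which 1 is not reported here. The script of the fits was tested on simulated data. Other pseudocounts, filters, normalization, designs, controls and left-out libraries were tried as alternatives. Symbols came from the tables for 16582 genes and from RefSeq for 450, and promoters from RefSeq (GRCm38.p6).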

Additional observations from a re-analysis of the deposited data

Results flagged for a closer look

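Of 54 tests of whether a member's difference varied between regions, 5 passed by limma. In the inhibitor experiment, 12 sets of 4 control values were checked, each for 1 listed member in 1 region. Of these, 0 held a library far from the others, and groups of 3 libraries were not checked in this way. The difference of PDGFRA-HIGH and PDGFRA-MED cells in Ptgs2 was smaller distally than proximally (distal minus proximal -1.345 on the log2 scale, adjusted p = 0.0119), with 1 of 6 members past the threshold. The difference of CD29-HIGH and PDGFRA-MED cells in Ptgs2 was smaller distally too (-1.917, adjusted p = 0.00579), and both use the same PDGFRA-MED libraries. The effect of LGK974 was lower distally than proximally for Ptger3 (distal minus proximal -1.483, adjusted p = 0.0123) and Ptger4 (-1.552, adjusted p = 0.00383). For Ptger3 it was also lower in mid than in proximal epithelium (mid minus proximal -1.843, adjusted p = 0.00157). The 3 LGK974 tests share their proximal libraries, and Ptger3 passed the filter in that table through 4 libraries, 3 of them proximal LGK974 libraries. With the vehicle library alone as control none of the 3 passed (adjusted p = 0.193, 0.114 and 0.0523).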

How the results depend on the processing

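Counts of members called were recomputed under each alternative, beside 76 single values. The share of all genes called was not counted under these alternatives. The counts therefore describe how calls of members change with the setting and are not results about the members. No called value changed sign. Under a pseudocount of 0.1, 1 member passed between distal and proximal PDGFRA-HIGH cells and 1 (Ptger3) with LGK974 in mid epithelium. A pseudocount of 1 left 0 with LGK974 in distal epithelium. With no minimum change, 2 passed between distal and proximal epithelium, 3 in PDGFRA-MED cells, 1 with LGK974 in mid and 2 in proximal epithelium. Fitting the compared groups alone left 0 in PDGFRA-MED cells. A filter at 5 RPKM left 3 between CD29-HIGH and PDGFRA-MED cells, with 4 members tested, and 0 with LGK974 distally, with 1 tested. Quantile normalization gave 1 with LGK974 proximally and 0 distally, limma-voom 1 in mid and 2 in distal epithelium, and the vehicle library as the only control 0 distally. Leaving out 1 library at a time, counts ranged between 1 and 2 for distal against proximal PDGFRA-HIGH and CD29-HIGH cells, and between 0 and 1 for LGK974 in proximal and in distal epithelium.

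With LGK974 proximally, Ptger3 passed without untreated replicate 2 (1.19, adjusted p = 0.034) or without LGK974 replicate 1 (1.25, adjusted p = 0.032). With the vehicle library alone as control, the regional differences of the LGK974 effect did not pass, at -1.48 (adjusted p = 0.193) and -1.32 (adjusted p = 0.114) for distal Ptger3 and Ptger4 and -2.09 (adjusted p = 0.0523) for mid Ptger3. The Ptgs2 difference of -1.34 between regions did not pass without PDGFRA-HIGH proximal replicate 3 (-1.27, adjusted p = 0.0547). Without the replicate block 5 members passed between PDGFRA-HIGH and PDGFRA-MED cells, as with it, and adding the block in the inhibitor experiment left 1 in distal epithelium. No call of a member changed with the block. The cause of these changes was not tested, apart from filters and fits that hold fewer genes or samples by construction. Low read numbers limit Ptger3 and Ptges in epithelium.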
